A study of Mus musculus with 6 samples.

Results

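The 9 genes described here are markers of homeostatic microglia, the resting resident macrophages of the brain, and were chosen by symbol: Cx3cr1, P2ry12, Tmem119, Csf1r, Sall1, C1qa, C1qb, C1qc and Aif1. They are 9 of the 46983 genes counted. RNA was sequenced from whole cerebellum of 6 mice of strain background C57BL/6J at postnatal day 60, and each library came from its own animal. All 6 animals carried Tie2-Cre, a recombinase driven by the promoter of an endothelial receptor gene that is also active in blood lineages. The 3 animals labelled WT were Tie2-Cre Slc7a5 fl/+, so they carried Cre and 1 floxed allele, and those labelled Slc7a5-KO were Tie2-Cre Slc7a5 fl/fl. Slc7a5 encodes LAT1, a carrier of large neutral amino acids, and the series asks what its loss at the blood-brain barrier does to the brain. The sources used here do not say whether Cre acted in the microglia of these animals.

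Microglia descend from yolk sac progenitors and stay in the brain for life. They depend on signals from neighbouring cells: CSF1R binds the growth factors CSF1 and IL34, CX3CR1 binds fractalkine from neurons, and P2RY12 senses ADP from injured cells. Microglia are also the main source of the complement protein C1q in the brain, where it can tag synapses for removal.

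Depth was 13.4 to 34.2 M (mega) gene reads per library, with the lowest in Slc7a5-KO replicate 3. Sex was not in the labels. By Xist and Y-linked transcripts, 1 WT animal (replicate 2) was female and 2 were male, whereas 2 animals labelled Slc7a5-KO (replicates 1 and 3) were female and 1 was male. Slc7a5 itself was no lower in the Slc7a5-KO-labelled libraries, at 72.0, 66.3 and 43.2 counts per M reads (CPM) in WT but 164, 59.4 and 118 CPM in the Slc7a5-KO-labelled libraries (log2 fold change 0.91 ± 0.42, edgeR adjusted p = 0.84). Of the 6 fits that dropped 1 library, only the one without Slc7a5-KO replicate 2 had Slc7a5 pass, as higher in that group (log2 1.22, edgeR adjusted p = 0.0104). The other 5 gave 0.546 (without Slc7a5-KO replicate 1) to 1.06, with edgeR adjusted p of 0.73 to 1. Every direction below follows the labels. Markers of cerebellar neurons were present, though no other region was compared. All 10 granule neuron markers listed were tested, with summed levels of 4320 to 6310 CPM in WT and 3740 to 6020 CPM in the Slc7a5-KO-labelled libraries. The 10 Purkinje cell markers summed to 5720 to 7020 CPM and 4000 to 5910 CPM. Choroid plexus markers summed to 2600 to 5790 CPM in WT and 48.6 to 4930 CPM in the Slc7a5-KO-labelled libraries, lowest in replicate 2. The part of these shifts in the microglia values was not tested. In bulk tissue, fewer microglia and less RNA per microglial cell cannot be told apart.

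None of the 9 microglia genes was called as different between the groups by the test over all genes, which does not show that none changed. All 9 passed the filter on low counts, and 0 of 9 had an edgeR adjusted p under 0.05, where 8 of 16851 genes (0.0475%) did, all 8 higher. DESeq2 and limma-voom also called 0 of 9. At an unadjusted edgeR p under 0.05 there were 2 of the 9, Cx3cr1 and Csf1r, both higher in the Slc7a5-KO-labelled libraries, against 6.22% of all genes in either direction and 3.45% in that direction. The groups did not overlap for 1 of the 9, Cx3cr1, where 11.5% of all genes did not overlap, 5.93% of all genes being separated upwards as Cx3cr1 was. The log2 fold changes ran from -0.02 (P2ry12) to 0.52 (Cx3cr1) with a median of 0.16, beside 0.0022 over all genes, and 8 of 9 were above 0, as were 50.3% of all genes.

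Per exon length, the complement genes stood highest and Aif1 lowest. In reads per kilobase of exon per M reads (RPKM), the means over all 6 libraries were 56.9 for C1qb, 45.7 for C1qa, 32.2 for C1qc, 12.8 for P2ry12, 7.42 for Csf1r, 6.93 for Cx3cr1, 5.44 for Tmem119, 3.52 for Sall1 and 1.56 for Aif1. The order had 2 clear steps. C1qc (26.0 to 42.7 RPKM) lay above P2ry12 (10.2 to 14.4 RPKM) with no overlap, and Sall1 (2.90 to 4.12 RPKM) lay above Aif1 (1.15 to 2.39 RPKM) with none. All other neighbours in the order overlapped across libraries. Even so, C1qa exceeded C1qc, P2ry12 exceeded Csf1r and Tmem119 exceeded Sall1 in 6 of 6 libraries, while Csf1r exceeded Cx3cr1 in 4 of 6. The lengths are all annotated exons joined, so a gene expressed as a short isoform reads low on this scale.

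**Figure D1:**
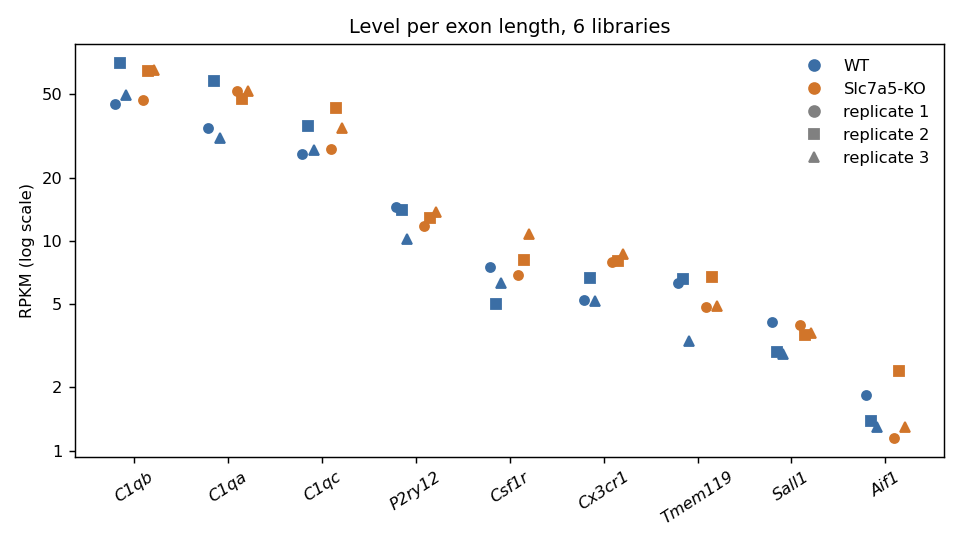
Level of each microglia gene per kilobase of exon (RPKM, log axis) in each library, coloured by group, with the replicate shown by the symbol. The 3 C1q genes lie between 26.0 and 70.5 RPKM, above P2ry12 at 10.2 to 14.4 RPKM, and Aif1 lies lowest at 1.15 to 2.39 RPKM.

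Of the receptors, Cx3cr1 showed the largest difference among the 9 genes. Cx3cr1, the fractalkine receptor (ENSMUSG00000052336.6, GRCm38 chromosome 9, 119901616 to 120069879, minus strand), was measured at 23.6, 30.0 and 23.1 CPM in WT replicates 1 to 3 and at 35.7, 36.0 and 38.8 CPM in Slc7a5-KO replicates 1 to 3. All 3 Slc7a5-KO-labelled libraries lay above all 3 WT libraries, and the WT female was nearest to them. The means were 25.6 ± 3.83 and 36.8 ± 1.73 CPM (SD, n = 3 each), a ratio of 1.44. The log2 fold change was 0.52 ± 0.17 (95% interval 0.16 to 0.89, edgeR unadjusted p = 0.0072, edgeR adjusted p = 0.59), so the gene did not pass over all genes. Its value stayed between 0.45 and 0.66 when 1 library was left out, and was 0.467 with a term for sex. In the authors' deposited table Cx3cr1 had an unshrunken log2 fold change of 0.52 with an adjusted p of 0.0728, the smallest among the 9 genes there and also short of 0.05. Exons of Gm33858 on the opposite strand overlap those of Cx3cr1, and 99.9% of the stranded reads were on the Cx3cr1 strand. Its annotated span also overlaps other genes, such as Gorasp1, Csrnp1 and Xirp1 on the same strand, without shared exons.

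Csf1r, the growth factor receptor that microglia need to survive (ENSMUSG00000024621.15, chromosome 18, 61100598 to 61132149, plus strand), stood at 43.2, 28.7 and 36.2 CPM in WT and at 39.7, 46.9 and 62.5 CPM in the Slc7a5-KO-labelled libraries. The groups overlapped, since WT replicate 1 exceeded Slc7a5-KO replicate 1, and the highest value came from the shallowest library. Its log2 fold change was 0.46 ± 0.19 (95% interval 0.06 to 0.86, edgeR adjusted p = 0.75). Leaving out that library gave 0.266. The opposite-strand gene Hmgxb3 overlaps exons of Csf1r, and 88.5% of the stranded reads here were on the Csf1r strand, while only that strand was counted.

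P2ry12, the ADP receptor that guides microglial processes to injury (ENSMUSG00000036353.13, chromosome 3, 59216272 to 59262871, minus strand), did not differ beyond its spread between animals. It stood at 36.6, 35.6 and 25.9 CPM in WT and at 29.9, 32.5 and 34.8 CPM in the Slc7a5-KO-labelled libraries, which fell inside the WT range. The log2 fold change was -0.02 ± 0.18, with a 95% interval of -0.39 to 0.36. Its exons overlap those of Med12l on the opposite strand, and 99.1% of the stranded reads were on the P2ry12 strand. Tmem119, a membrane protein used to tell microglia from other macrophages (ENSMUSG00000054675.5, chromosome 5, 113793729 to 113800516, minus strand), stood at 14.5, 15.3 and 7.68 CPM in WT and at 11.2, 15.5 and 11.3 CPM in the Slc7a5-KO-labelled libraries. The groups overlapped, and WT replicate 3 was the lowest of the 6. Its log2 fold change was 0.02 ± 0.28 (95% interval -0.56 to 0.60, edgeR adjusted p = 1.00).

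Set against P2ry12 in the same library, Cx3cr1 was lower in WT and higher in the Slc7a5-KO-labelled libraries. The ratio of Cx3cr1 to P2ry12 in CPM was 0.645, 0.842 and 0.895 in WT and 1.19, 1.11 and 1.12 in the Slc7a5-KO-labelled libraries. The log2 ratios differed by 0.533 between the group means, with SDs of 0.251 and 0.0577, and did not overlap. The ratio was chosen with both genes' values known and carries no test. Of the ratios between members that were computed, it was the only one that separated the groups. Since P2ry12 was nearly level (log2 fold change -0.02), the ratio restates the Cx3cr1 difference (0.52) and is no second result. The ratio of Csf1r to P2ry12 ran from 0.805 to 1.40 in WT and from 1.33 to 1.80 in the Slc7a5-KO-labelled libraries, and these overlapped. That of Cx3cr1 to Csf1r overlapped too, at 0.546 to 1.05 in WT and 0.621 to 0.898 in the Slc7a5-KO-labelled libraries.

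**Figure D2:**
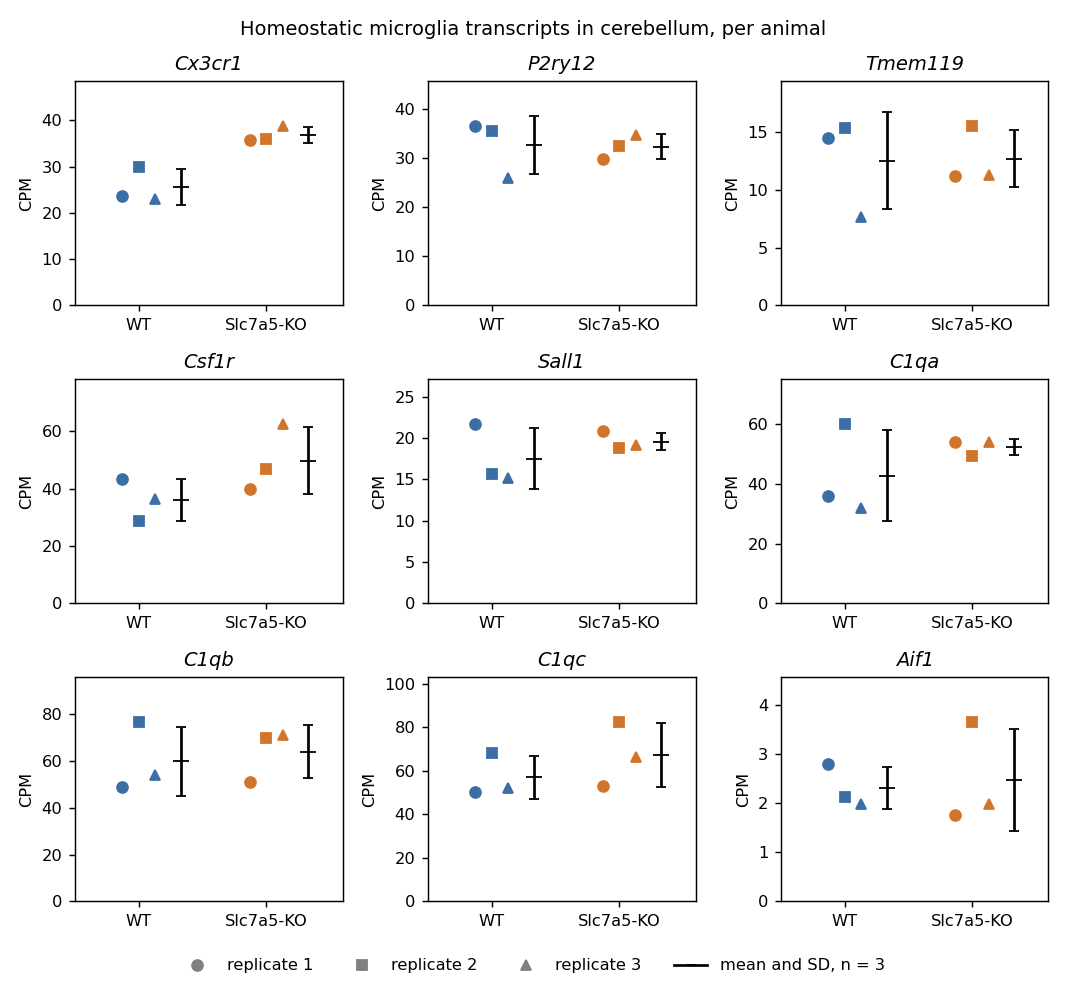
CPM of the 9 microglia genes in each animal, with a separate linear axis from 0 for each gene, the symbol giving the replicate and the black bar the mean and SD of 3 animals. Cx3cr1 alone of the 9 separates the groups, at 23.1 to 30.0 CPM against 35.7 to 38.8 CPM, and P2ry12 in the Slc7a5-KO-labelled libraries (29.9 to 34.8 CPM) lies inside the WT range.

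Sall1, a transcription factor that keeps microglia in their resting state (ENSMUSG00000031665.6, chromosome 8, 89027235 to 89044162, minus strand), stood at 21.7, 15.6 and 15.2 CPM in WT and at 20.8, 18.8 and 19.1 CPM in the Slc7a5-KO-labelled libraries, all inside the WT range. Its log2 fold change was 0.16 ± 0.21 (95% interval -0.28 to 0.61, edgeR adjusted p = 0.97). It was 0.348 without WT replicate 1, the highest of the 6 libraries, and 0.087 and 0.0696 without WT replicates 2 and 3.

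The 3 C1q genes encode the chains that assemble into C1q, the recognition protein of the classical complement pathway. They lie side by side on the minus strand of chromosome 4 within 18.7 kilobases, with C1qb at 136880129 to 136886187 (ENSMUSG00000036905.8), C1qc at 136889804 to 136893065 (ENSMUSG00000036896.5) and C1qa at 136895917 to 136898803 (ENSMUSG00000036887.5). Between them are gaps of 3616 and 2851 bases. C1qa stood at 35.9, 60.0 and 32.0 CPM in WT and at 53.8, 49.3 and 53.9 CPM in the Slc7a5-KO-labelled libraries. WT replicates 1 and 3 were low and WT replicate 2 was the highest of all 6, so the group means of 42.6 ± 15.2 and 52.3 ± 2.63 CPM (SD, n = 3 each) overlapped (log2 fold change 0.30 ± 0.20, 95% interval -0.12 to 0.71, edgeR adjusted p = 0.89). The C1qa value was 0.627 without WT replicate 2, but 0.186 and 0.122 without WT replicates 1 and 3, and it passed in none of these (edgeR adjusted p of 0.472 to 1).

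C1qb stood at 49.0, 76.7 and 54.1 CPM in WT and at 51.0, 69.8 and 71.2 CPM in the Slc7a5-KO-labelled libraries, and its highest library was again WT replicate 2. Its log2 fold change was 0.09 ± 0.18 (95% interval -0.28 to 0.47, edgeR adjusted p = 0.98). C1qc stood at 50.3, 68.4 and 52.3 CPM in WT and at 52.8, 82.5 and 66.5 CPM in the Slc7a5-KO-labelled libraries, highest in Slc7a5-KO replicate 2. Its log2 fold change was 0.24 ± 0.17 (95% interval -0.12 to 0.60, edgeR adjusted p = 0.92). Dropping Slc7a5-KO replicate 2 lowered it to 0.0581 and dropping WT replicate 1 lowered it to 0.156, whereas it was 0.394 when WT replicate 2 was dropped and 0.388 when Slc7a5-KO replicate 1 was. The 3 genes together made up 48.7% to 61.7% of the summed CPM of the 9 genes, with both extremes in WT libraries. The chains did not keep 1 ratio across animals: in CPM, C1qc to C1qb ran from 0.891 to 1.18, and C1qa to C1qb from 0.592 to 1.06, the highest in Slc7a5-KO replicate 1.

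Promoter windows are shown for the C1q neighbours that varied most alike, C1qb and C1qc, and for the receptors that differed most and least between the groups, Cx3cr1 and P2ry12. Each covers 250 bases before to 50 after the RefSeq start, on GRCm38.p6, read 5′ to 3′ on the minus strand, at chr4:136886151-136886450, chr4:136892865-136893164, chr9:120068247-120068546 and chr3:59262936-59263235 in that order. Capitals mark matches on either strand to GAGGAA, the core bound by the myeloid factor PU.1, or to GGAAGT, an ETS family core. The motifs can overlap, as they do in C1qc.
C1qb: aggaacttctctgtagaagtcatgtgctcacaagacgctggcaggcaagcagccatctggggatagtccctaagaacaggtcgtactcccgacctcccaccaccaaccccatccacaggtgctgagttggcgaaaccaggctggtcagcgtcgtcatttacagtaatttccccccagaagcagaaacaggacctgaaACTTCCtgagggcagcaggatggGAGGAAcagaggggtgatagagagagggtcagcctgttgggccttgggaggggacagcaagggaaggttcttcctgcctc
C1qc: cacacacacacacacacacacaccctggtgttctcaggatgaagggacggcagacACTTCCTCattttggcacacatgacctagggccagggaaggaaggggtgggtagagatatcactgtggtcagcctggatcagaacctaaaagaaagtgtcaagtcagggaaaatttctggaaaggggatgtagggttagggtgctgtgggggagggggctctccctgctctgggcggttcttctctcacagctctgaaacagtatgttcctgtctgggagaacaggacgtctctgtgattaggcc
Cx3cr1: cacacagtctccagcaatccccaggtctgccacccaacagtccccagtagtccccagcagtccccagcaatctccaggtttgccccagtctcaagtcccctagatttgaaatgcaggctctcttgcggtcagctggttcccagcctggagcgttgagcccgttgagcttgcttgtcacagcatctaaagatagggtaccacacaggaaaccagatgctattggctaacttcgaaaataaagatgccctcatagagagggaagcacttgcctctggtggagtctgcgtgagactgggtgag
P2ry12: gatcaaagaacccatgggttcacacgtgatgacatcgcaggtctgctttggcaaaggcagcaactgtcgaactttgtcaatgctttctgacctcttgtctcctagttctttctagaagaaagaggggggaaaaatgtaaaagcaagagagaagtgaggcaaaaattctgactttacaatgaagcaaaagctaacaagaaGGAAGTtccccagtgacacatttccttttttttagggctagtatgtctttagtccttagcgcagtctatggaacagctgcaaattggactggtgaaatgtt
C1qb had GAGGAA starting 30 bases before the start and GGAAGT on the opposite strand from 53 bases before it. C1qc held both on the opposite strand from 195 bases before the start, P2ry12 had GGAAGT 51 bases before it, and the Cx3cr1 window held neither string. Of the 9 genes, 6 had a window in the RefSeq table, and Sall1 had 3 of the 8 windows. A match to either string was found for 5 of these 6, in at least 1 window each, and 43.4% of 32851 promoter windows of the same length held one. GAGGAA was in 28.3% and GGAAGT in 23.8% of all windows. Such matches are common and describe the letters of these windows only.

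Aif1 encodes IBA1, an actin-binding calcium-sensing protein widely used to stain microglia (ENSMUSG00000024397.14, chromosome 17, 35170991 to 35176068, minus strand). It was the least counted of the 9, with 27 to 99 reads per library. It stood at 2.80, 2.13 and 1.99 CPM in WT and at 1.76, 3.66 and 1.99 CPM in the Slc7a5-KO-labelled libraries, with both the lowest and the highest value in the latter group. Its log2 fold change was 0.10 ± 0.52 (edgeR adjusted p = 1.00), with a wide 95% interval of -0.99 to 1.20.

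**Figure D3:**
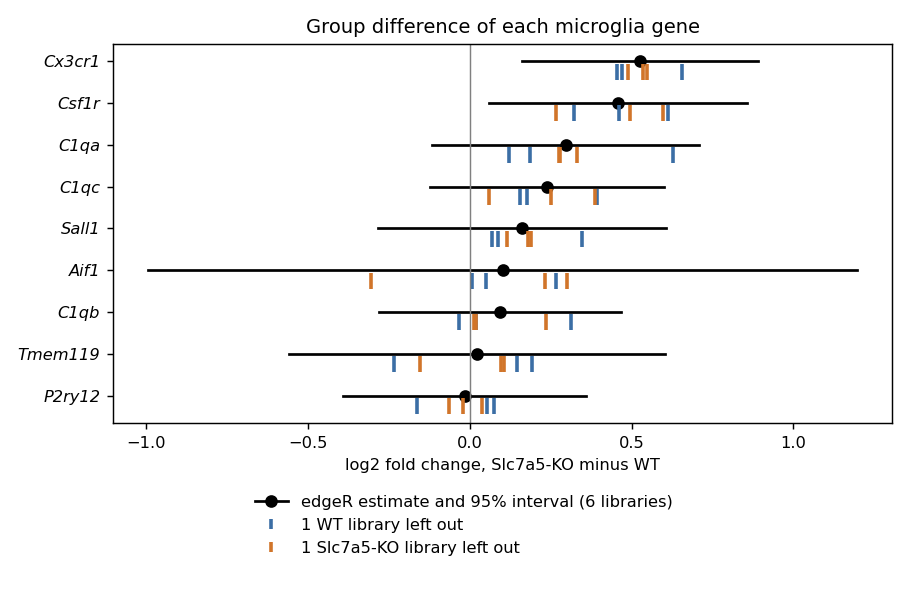
Log2 fold change (Slc7a5-KO minus WT) of each gene with its 95% interval from edgeR over 6 libraries, and below it the value with 1 library left out, blue for WT and orange for Slc7a5-KO. The intervals of Cx3cr1 (0.16 to 0.89) and Csf1r (0.06 to 0.86) lie above 0 before any adjustment over genes, and leaving out 1 library moves P2ry12, Tmem119, Aif1 and C1qb to either side of 0.

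Spread between animals was above counting error for each of the 9 genes in both groups. In WT the coefficient of variation over 3 animals was 35.6% for C1qa, where counting alone would give 2.90%, and 33.5% for Tmem119, where it would give 5.48%. In the Slc7a5-KO-labelled libraries, Cx3cr1 varied by 4.71%, C1qa by 5.02% and Sall1 by 5.60%, close to their counting errors of 3.56%, 3.00% and 4.94%. In WT the same 3 genes varied by 15%, 35.6% and 20.8%. P2ry12, Tmem119 and C1qb also varied less in the Slc7a5-KO-labelled libraries than in WT. Csf1r (20.2% in WT, 23.4% in the other group) and C1qc (17.4% and 22.1%) varied more there, as did Aif1. Cx3cr1, C1qa and Sall1 were picked for their low spread, and the difference in spread between the groups was not tested. For Aif1 counting error was 12.3% in WT and 14.7% in the other group, against observed values of 18.7% and 42.0%. No molecular identifiers are described for the reads, so these errors cover counting only.

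The 9 genes did not move as 1 block across animals. WT replicate 3 lay below each gene's mean over the 6 libraries for 9 of 9 genes and held the lowest value for 5 of them. Slc7a5-KO replicate 2, the library with almost no choroid plexus RNA, lay above the mean for 9 of 9 and held the highest value for 3. The mean deviation of the 9 genes was -0.0388, 0.045 and -0.333 on the log2 scale in WT and -0.0592, 0.239 and 0.147 in the Slc7a5-KO-labelled libraries, and WT replicates 1 and 2 exceeded Slc7a5-KO replicate 1. Without WT replicate 3 the median log2 fold change of the 9 genes was 0.0696, and without Slc7a5-KO replicate 2 it was 0.0581, both under the 0.162 seen with all libraries. Leaving out another library raised it, to 0.186 and 0.314 for WT replicates 1 and 2 and to 0.275 and 0.233 for Slc7a5-KO replicates 1 and 3.

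**Figure D4:**
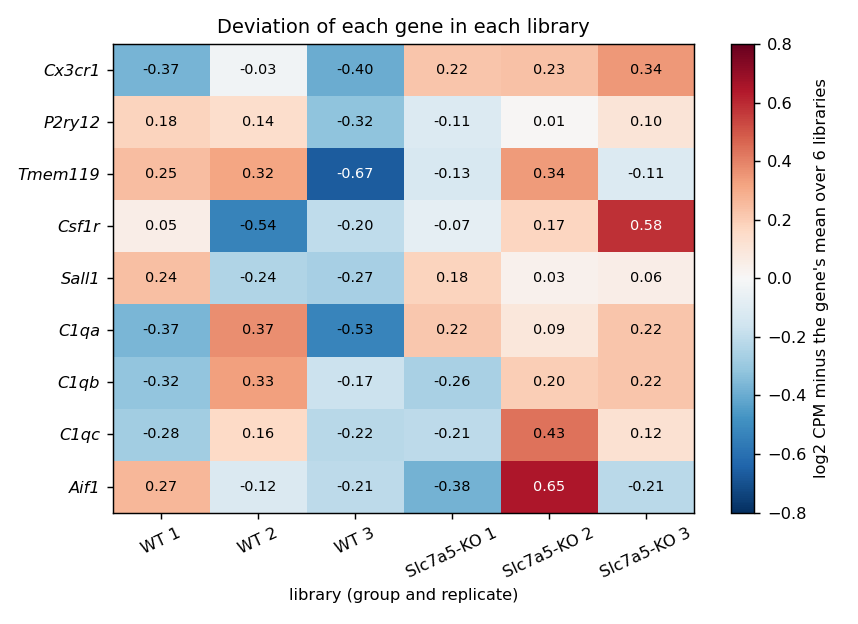
Log2 CPM of each gene in each library minus the gene's mean over the 6 libraries, printed in each cell and coloured from blue (below the mean) to red (above). The column of WT replicate 3 is below 0 for all 9 genes and that of Slc7a5-KO replicate 2 is above 0 for all 9.

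Over the 36 pairs of genes, the Pearson correlation of log2 CPM across the 6 libraries, given as a description, had a median of 0.346 and ran from -0.458 (C1qb with Sall1) to 0.873 (C1qb with C1qc, Spearman 0.771). P2ry12 and Tmem119 had 0.841 and Cx3cr1 and C1qa 0.824, and 31 of 36 pairs were above 0. The 3 C1q pairs had 0.588 to 0.873. All values share libraries and scaling. The 5 genes outside the list whose profile over the 6 libraries was most like the mean of the 9 were Eif5a (r = 0.984), Rbbp8 (0.981), Ankrd9 (0.98), Irs2 (0.98) and Gfer (0.979). None of them is on the microglia lists used here, and 116 of the 14685 other genes with a mean of at least 1 CPM had r over 0.9.

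Related gene lists gave no call either. Of 25 other microglia signature genes, all were tested and 0 passed an edgeR adjusted p of 0.05. An unadjusted edgeR p under 0.05 was found for 4, all higher in the Slc7a5-KO-labelled libraries. Over all genes 6.22% had one, 3.45% as higher, which is also the background for the lists below. The groups did not overlap for 5 of the 25, beside 11.5% of all genes in either direction. The median log2 fold change of the 25 was 0.168, with 18 above 0 and 7 below. Fcer1g, a signalling chain of Fc receptors, stood at 7.97, 6.50 and 8.11 CPM in WT and at 15.3, 11.7 and 11.6 CPM in the Slc7a5-KO-labelled libraries, with no overlap (log2 0.78 ± 0.26, edgeR adjusted p = 0.60). Selplg, a ligand of selectins, stood at 34.7, 38.3 and 32.8 CPM and at 38.9, 52.5 and 49.5 CPM, also with no overlap (log2 0.41 ± 0.16, edgeR adjusted p = 0.74). Slc7a5-KO replicate 1 lay close to the highest WT library for Selplg. The summed level of the 25 genes was 314 to 343 CPM in WT and 348 to 394 CPM in the Slc7a5-KO-labelled libraries. That of the 9 genes overlapped, at 248 to 332 and 297 to 360 CPM. The sums were not tested.

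Signals that act on microglia were higher in the mean but did not pass. Cx3cl1, fractalkine, stood at 195, 166 and 203 CPM in WT and at 205, 271 and 285 CPM in the Slc7a5-KO-labelled libraries (log2 0.43 ± 0.14, edgeR adjusted p = 0.59). Slc7a5-KO replicate 1 lay only just above the highest WT library. Tgfb1, a cytokine that maintains the microglial state, stood at 6.53, 8.01 and 6.16 CPM and at 10.6, 10.1 and 13.1 CPM, with no overlap (log2 0.70 ± 0.27, edgeR adjusted p = 0.71). Both CSF1R ligands, chosen after their values were seen, did not pass: Csf1 had 0.08 ± 0.18 and Il34 0.31 ± 0.23 on the log2 scale.

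Of 10 genes of CSF1R and TYROBP signalling, 0 passed and 0 had an unadjusted edgeR p under 0.05. Their median was 0.245, and the smallest p belonged to Inpp5d, a lipid phosphatase (0.57 ± 0.33), and Sirpa, a receptor for CD47 (0.23 ± 0.13). Of 12 myeloid transcription factors 0 passed, 1 had an unadjusted p under 0.05, and the median was 0.04. Tal1, a blood lineage factor, had 1.05 ± 0.42 (edgeR adjusted p = 0.73) and Cebpa 0.48 ± 0.33. Of the 10 purinergic genes, P2ry12 included, 0 passed, 0 had an unadjusted p under 0.05 and the median was -0.06. Nt5e and Entpd1, enzymes that break down extracellular nucleotides, had -0.56 ± 0.29 and 0.34 ± 0.28.

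Complement genes, which include the 3 C1q chains, were tested for 21 of 22 members, as C1rb had no reads in any library. None of the 21 passed, 2 had an unadjusted edgeR p under 0.05, both higher, and the median was 0.24 with 13 above 0 and 8 below. Those 2 were Itgb2, a chain of complement receptor 3 (1.36 ± 0.48, edgeR adjusted p = 0.65), and C4b, which is cleaved after C1q binds (0.60 ± 0.28, edgeR adjusted p = 0.79). Itgb2 had only 38 to 115 reads per library. It stood at 2.46, 2.02 and 1.38 CPM in WT and at 3.41, 3.36 and 8.45 CPM in the Slc7a5-KO-labelled libraries, by far the highest in the shallowest library.

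Genes of activated phagocytes had a higher median than the homeostatic genes, though the difference between the lists was not tested. Of 18 listed, 15 were tested, 14 of them above 0 with a median of 0.455, 0 passed, and Gpnmb (2.10 ± 0.41, edgeR adjusted p = 0.092) and Cd68 (1.26 ± 0.29, edgeR adjusted p = 0.21) were the 2 with an unadjusted p under 0.05. Macrophages of the brain's borders gave little signal, with summed marker levels of 14.1 to 22.0 CPM in WT and 13.7 to 15.2 CPM in the Slc7a5-KO-labelled libraries. Of its 12 markers, 9 were tested with a median of -0.87, 2 above 0 and 7 below, and none passed or had an unadjusted p under 0.05. Folr2, a folate receptor, had -1.62 ± 1.00 and Stab1, a scavenger receptor, 0.51 ± 0.34. Blood leukocyte markers summed to 2.10 to 4.58 CPM and 2.88 to 5.37 CPM, and 10 of the 12 were too low to test. The other 2, Itgal and S100a8, had 0.24 ± 0.77 and -0.16 ± 1.51.

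**Figure D5:**
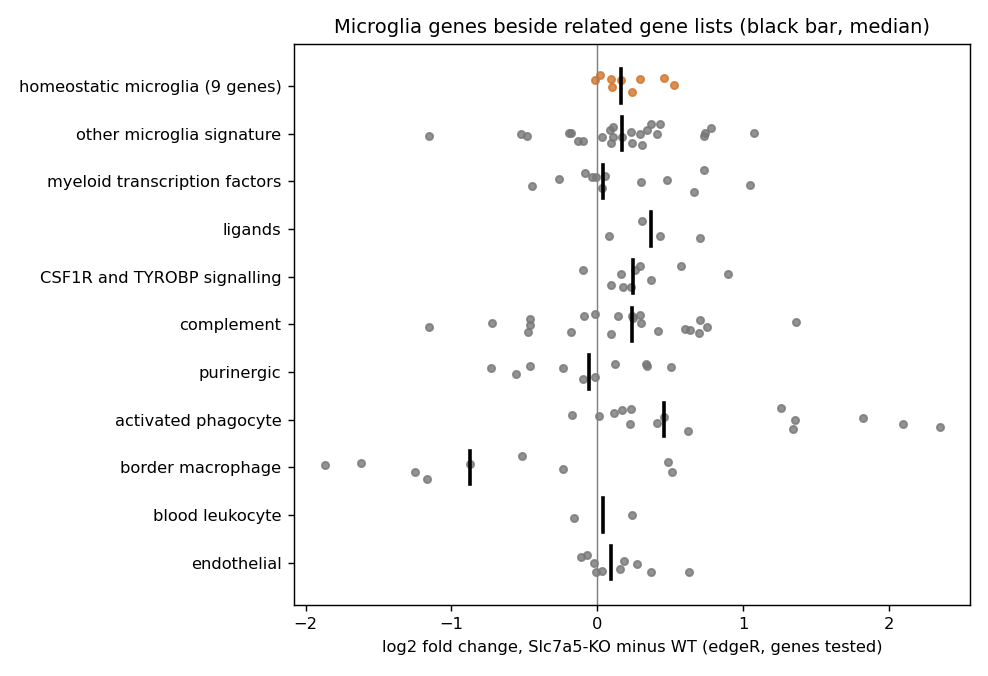
Log2 fold change (Slc7a5-KO minus WT, edgeR) of each tested gene by list, with the 9 homeostatic microglia genes in orange and a black bar at each median. The homeostatic genes span -0.02 to 0.52 with a median of 0.16, and the activated phagocyte genes reach above 2.10 with a median of 0.455.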

How the data were processed

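The authors deposited raw read counts per gene, with 1 table per library and 3 columns (unstranded, forward and reverse), per the file headers. Per the submitters' processing notes, STAR 2.5.4 and the build GRCm38 (mm10) were used. The sources used here do not name the annotation release. Libraries were made with a stranded kit (SENSE mRNA-Seq V2), per the labels' protocols. The reverse-strand count, which held 94.8% to 95.8% of stranded gene reads, was analysed. Reads of no gene or of several genes, 19.5% to 22.2%, stayed out. The authors' deposited comparison (DESeq2 1.10.1 in R 3.2.4, per the submitters' processing notes) gives a mean normalized signal, log2 fold changes, a Wald score and p-values.

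Symbols, coordinates and exon lengths came from GENCODE M21 on GRCm38, which matched 46488 of 46983 identifiers. A filterByExpr filter (minimum count 10, minimum total 15) left 16851 genes. The main test was edgeR 4.0.16 in R 4.3.3, the robust quasi-likelihood test with TMM scaling, 2-sided, with Benjamini-Hochberg adjustment at 0.05. CPM use the TMM library sizes, and a prior count of 2 was added for log2 CPM. The error after ± is the SD for CPM and the standard error for a log2 fold change. The alternatives changed the scaling, the filter, the count column or the test (DESeq2 1.42.0, voom in limma 3.58.1), added a replicate block or a sex term, or left out 1 library. All 3 tools were run on counts simulated with the spread that edgeR had fitted. Only the edgeR output was checked there against set limits.

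The 9 genes and all lists were chosen with earlier results of these data known. Fold changes are named for the 9 genes, Slc7a5, the 2 genes with the smallest p of a list (given for the microglia-related lists and for astrocytes) and any gene marked as picked after its values were seen. The 5 genes most alike the mean of the 9 are named with their correlation. 1 gene of the other microglia signature list is not reported here.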

Additional observations from a re-analysis of the deposited data

How the results depend on the processing

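None of the 9 microglia genes passed under any of the 13 alternatives. Of 117 gene values under these, 110 kept their direction and 7 changed sign, all 7 with 1 library left out. Leaving out 1 library took P2ry12 from -0.162 to 0.0748, C1qb from -0.0327 to 0.314, Tmem119 from -0.235 to 0.193 and Aif1 from -0.305 to 0.301 (log2), so these 4 have no settled direction. The median of the 9 ran from 0.0581 to 0.314. P2ry12 had 0.0748 and 0.0532 when WT replicate 1 or 2 was dropped and 0.0391 when Slc7a5-KO replicate 1 was, and Tmem119 had -0.155 without Slc7a5-KO replicate 2. The count of all genes called was 8 and became 71 with no filter on low counts, 45 with DESeq2, 16 with a sex term (added after seeing the data) and 3 to 20 with 1 library left out (3 when WT replicate 3 was dropped, 5 for either of WT replicate 1 and Slc7a5-KO replicate 3, 20 for either of Slc7a5-KO replicates 1 and 2); the cause was not tested. With the replicate number as a block it was 6, and 0 of the 9 passed. Same-numbered libraries had correlations of -0.0381, -0.0588 and -0.0267 between their deviations. The labels do not say whether the numbers pair the animals, and values this near 0 cannot settle it. With 3 animals a group, the observed spread exceeded counting error for all 9 genes, though narrowly for some, and the excess was not tested. Counting error was largest for Aif1, at 27 to 99 reads.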

Other observations

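By sex as read from the data, C1qa was the only one of the 9 genes that separated the animals: the 3 females stood at 53.8 to 60.0 CPM and the 3 males at 32.0 to 49.3 CPM, across both groups. C1qb (51.0 to 76.7 CPM in females, 49.0 to 69.8 CPM in males) and C1qc (52.8 to 68.4 CPM, 50.3 to 82.5 CPM) overlapped. The groups hold different numbers of each sex, and the log2 fold change of C1qa was 0.19 with a sex term against 0.30 without. The pattern was seen in the values and was not tested. The share of all genes that separate the animals by sex was not computed, so the pattern cannot be read as particular to C1qa.

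Other cell type lists held no gene that passed an edgeR adjusted p of 0.05. Gfap, an intermediate filament of astrocytes, had 0.55 ± 0.14 (edgeR adjusted p = 0.31) and S100b -0.38 ± 0.13 (edgeR adjusted p = 0.64). Endothelial markers had a median log2 fold change of 0.09 over 10 genes and summed to 347 to 421 CPM in WT and 357 to 445 CPM in the Slc7a5-KO-labelled libraries. At an unadjusted edgeR p under 0.05 there were 5 of 10 Purkinje cell markers, all lower, against 6.22% of all genes. There were also 3 of 10 astrocyte and Bergmann glia markers, 1 of them higher. The medians of these 2 lists were -0.43 and -0.11, and all 10 Purkinje cell markers were below 0. The median of granule neuron markers was -0.17 and that of choroid plexus markers -0.65. Oligodendrocyte markers had a median of 0.08 and red blood cell genes 0.02, and red blood cell genes summed to 107 to 355 CPM and 124 to 231 CPM.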
